A study of Mus musculus with 6 samples.

Results

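Aldh1a3, Serpina7, Dapl1, Cd81, Fev, Npy and Cck are genes that have been linked to immature or dedifferentiated beta cells, and they were taken by name as 7 of the 52542 genes counted in mouse islet wells. They were followed in the 1000 insulin-only wells of the 2115 wells kept, of which 606 came from mice with a partial pancreatectomy (ppx) and 394 from sham-operated mice. A well was insulin-only when Ins1 and Ins2 together held at least 3.3% of its unique molecular identifiers (UMIs, counted molecules), with Sst under 0.73% and Gcg under 2.3%. Earlier results of the same wells were known when the genes were listed, among them the difference between ppx and sham and the detection of the genes in the same wells. Both are therefore given as descriptions without a p-value, and tests are given for other genes only.

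All mice were Sox9-CreER; tdTomato males, in which tamoxifen switches on a red reporter in cells that express Sox9, which is known from ducts and pancreatic progenitors, and in their descendants. Tamoxifen (8 mg) was given from 10 weeks of age for 2 weeks in both arms, and the operation followed at 12 weeks. Ppx removes part of the pancreas and the remainder regenerates, and the sham arm was operated on without removal. Islets were isolated with collagenase 4 weeks later, picked by hand and dissociated, and cells were sorted into 384-well plates for MARS-seq, a 3′ tag method that counts UMIs. Each arm had 3 plates. Ppx plate 1 and sham plate 1 were sorted as tomato-positive, ppx plates 2 and 3 and sham plate 3 as tomato-negative, and sham plate 2 held 4 rows of positive wells. Plates were the replicates, and the labels do not say which of the 6 pancreata each plate came from, so p-values measure the spread between plates only. The source label names Sox9-lineage traced cells, whereas 3 plates were sorted as negative.

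Beta cells that lose their mature state, called dedifferentiation, lower the genes for glucose sensing and insulin release and take up genes of progenitor or neonatal cells. Aldh1a3, a retinaldehyde dehydrogenase that makes retinoic acid, marks such cells in mouse models of diabetes. Serpina7 encodes thyroxine-binding globulin, a carrier of thyroid hormone in serum. Fev is an ETS transcription factor of endocrine progenitors and serotonergic neurons. Npy and Cck encode the peptides neuropeptide Y and cholecystokinin. Cd81 encodes a tetraspanin of the cell surface that has been used to mark immature beta cells in mouse, and Dapl1 encodes death-associated protein-like 1.

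The promoters of Serpina7 and Cd81 are shown because the wells that held UMIs of both exceeded the expected number by more than for any other pair, and that of Dapl1 because it showed the clearest difference between ppx and sham plates. Each run holds the 250 bases before the RefSeq start site (GRCm38.p6), read 5′ to 3′ on the strand of the gene. They lie at chrX:139085237-139085486 on the minus strand for Serpina7, at chr7:143052500-143052749 on the plus strand for Cd81 and at chr2:59484403-59484652 on the plus strand for Dapl1. Capitals mark TATAAA in Serpina7 and Dapl1, GTTAAT in Serpina7 and CAGCTG in Cd81.
Serpina7: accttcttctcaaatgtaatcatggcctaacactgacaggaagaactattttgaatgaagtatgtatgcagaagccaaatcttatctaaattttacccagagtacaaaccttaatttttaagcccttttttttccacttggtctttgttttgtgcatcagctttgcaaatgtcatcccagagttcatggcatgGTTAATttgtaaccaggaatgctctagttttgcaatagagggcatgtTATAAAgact
Cd81: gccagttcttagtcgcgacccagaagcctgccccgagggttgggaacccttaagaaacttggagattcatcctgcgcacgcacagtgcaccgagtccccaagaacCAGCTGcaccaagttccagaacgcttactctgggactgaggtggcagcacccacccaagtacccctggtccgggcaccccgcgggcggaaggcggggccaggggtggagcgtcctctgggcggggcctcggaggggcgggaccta
Dapl1: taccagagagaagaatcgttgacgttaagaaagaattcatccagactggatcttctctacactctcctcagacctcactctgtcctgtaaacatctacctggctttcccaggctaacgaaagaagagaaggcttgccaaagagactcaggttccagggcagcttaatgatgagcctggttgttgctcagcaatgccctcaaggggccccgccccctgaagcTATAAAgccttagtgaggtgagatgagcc
TATAAA began at position -10 from the start of Serpina7 and at position -29 from that of Dapl1, and was found on either strand in 14.2% of 27025 mouse promoters of 300 bases. In Cd81 it began at position 6, after the start and so within the 300 bases but outside the run shown. GTTAAT, at position -57 in Serpina7, was found in 7.20% of them, and CAGCTG, at position -145 in Cd81, in 16.1%. CCAAT (37.9% of promoters), CCGGAAGT (4.0%) and the endoplasmic reticulum stress element (0.130%) were also searched on both strands and had no match in these 3 promoters. These matches are letters in a window, and no binding was measured.

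In GENCODE on GRCm38, Serpina7 spans 139079257 to 139085236 of chromosome X, Cd81 143052739 to 143067934 of chromosome 7 and Dapl1 59484653 to 59505020 of chromosome 2. Aldh1a3 spans 66390890 to 66427517 of chromosome 7, Fev 74881509 to 74885419 of chromosome 1, Npy 49822710 to 49829507 of chromosome 6 and Cck 121489824 to 121495694 of chromosome 9. All are protein-coding. Cd81 is overlapped on the opposite strand by R74862, and it is not stated whether counting used the strand, so reads of the pair may not be told apart.

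Kept wells had a median of 1954.5 to 3890.5 UMIs on the ppx plates and 2119 to 3929 on the sham plates. Insulin-only wells numbered 20, 294 and 292 on ppx plates 1, 2 and 3 and 24, 177 and 193 on sham plates 1, 2 and 3, with medians of 4528.5, 3848 and 3996.5 UMIs against 5397, 4483 and 4817. Both tomato-positive plates thus gave few wells, with 110436 UMIs in all on ppx plate 1 and 142181 on sham plate 1, against 845011 to 1234927 on the other plates. All 9 beta markers were detected, and their summed level was 355844, 235136 and 223267 CPM (UMIs scaled to a common total per plate) on ppx plates 1, 2 and 3, against 314508, 298633 and 317378 CPM on sham plates 1, 2 and 3. Ins2 stood apart among them: it had 183536, 46945 and 22027 CPM on the ppx plates, against 113004, 121974 and 104521 CPM on the sham plates. Ins1 had 112246, 108805 and 124145 CPM on the ppx plates, against 140089, 105242 and 149378 CPM on the sham plates. The low Ins2 of ppx plates 2 and 3 moves with the operation on the tomato-negative plates, and its part in the values below was not tested. No well name occurred on more than 1 plate.

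Aldh1a3 was sparse and differed between the arms mainly through sham plate 3. In insulin-only wells 2 of 20, 25 of 294 and 29 of 292 wells of ppx plates 1, 2 and 3 had a UMI, against 3 of 24, 16 of 177 and 4 of 193 wells of sham plates 1, 2 and 3. Its level was 36.2, 41.8 and 40.5 CPM on the ppx plates, against 21.1, 26.0 and 4.17 CPM on the sham plates, and the arms did not overlap in level. They overlapped in the share of wells, which was 10.0%, 8.5% and 9.93% on the ppx plates and 12.5%, 9.04% and 2.07% on the sham plates. The level averaged 39.5 ± 2.90 CPM on ppx plates and 17.1 ± 11.5 CPM on sham plates (SD, n = 3 each), a log2 fold change of 1.36 ± 0.36 (SE). Without sham plate 3 it was 0.63, and without sham plate 2 it was 2.53. Of 134 UMIs in 79 wells, 22.4% came from 5 wells, the highest well held 10, and 52 wells held only 1.

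Aldh1a3 was detected most often in wells with insulin. It was detected in 7.9% of insulin-only wells (exact 95% interval 6.30 to 9.75) and 6.86% of the 175 insulin and somatostatin wells, which passed both limits. It was detected in 1.67% of 540 somatostatin-only wells, 0.654% of 153 glucagon-only wells, 1.37% of 73 wells with glucagon and another hormone and 1.15% of 174 hormone-low wells. Median depth was 4250.5 UMIs in insulin-only, 1582.5 in somatostatin-only and 3457 in glucagon-only wells. With every well thinned to 1000 UMIs the shares were 2.53% in insulin-only, 2.3% in insulin and somatostatin, 0.830% in somatostatin-only and 0% in glucagon-only wells. Thinned to 2000 UMIs they were 4.92% of 915 insulin-only, 2.35% of 170 insulin and somatostatin, 3.6% of 139 somatostatin-only and 0.735% of 136 glucagon-only wells, with 45, 4, 5 and 1 wells detected. In somatostatin-only wells the level was 9.90 and 28.9 CPM on ppx plates 1 and 3, from 4 UMIs and 1 UMI, against 7.99, 17.3 and 0 CPM on sham plates 1, 2 and 3. The unthinned glucagon-only share rests on 1 well, and the level of free RNA was not measured.

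Serpina7 was found in a larger share of wells than Aldh1a3 and was not confined to insulin wells. In insulin-only wells it had 45.3, 42.6 and 53.4 CPM on ppx plates 1, 2 and 3, against 56.3, 17.8 and 22.9 CPM on sham plates 1, 2 and 3. Sham plate 1, the tomato-positive sham plate with 5 of 24 wells detected, was the highest of all 6, so the arms overlapped. The means were 47.1 ± 5.66 CPM on ppx and 32.3 ± 20.9 CPM on sham plates (SD, n = 3 each), with a log2 fold change of 0.94 ± 0.29 (SE). The share of wells was 15%, 13.3% and 14.7% on the ppx plates, against 20.8%, 7.34% and 8.81% on the sham plates. Within the tomato-negative plates, ppx plates 2 and 3 lay 19.6 and 30.5 CPM above sham plate 3, whereas ppx plate 1 lay below sham plate 1 by a difference of -11.0 CPM. Its 168 UMIs were spread over 120 wells with at most 4 in any of them.

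By class, Serpina7 had a UMI in 12.0% of insulin-only wells (exact 95% interval 10.1 to 14.2), 17.7% of insulin and somatostatin wells, 15% of glucagon-only wells, 11% of wells with glucagon and another hormone, 10.3% of hormone-low wells and 4.44% of somatostatin-only wells. Its pooled level was 37.2 CPM in insulin-only wells, and it was higher in glucagon-only wells, at 68.1 CPM, and in hormone-low wells, at 62.5 CPM. Thinned to 1000 UMIs, hormone-low wells had the highest share at 7.96%, against 3.74% of insulin-only wells. A split by Ppy, chosen after the values were seen, separated the hormone-low wells. Those with at least 1% of UMIs from Ppy, the pancreatic polypeptide gene, had Serpina7 in 18 of 63 wells, and the others in 0 of 111 wells, at median depths of 3371 and 968 UMIs. Glucagon-only wells with at least 1% Ppy had it in 28.6% and the others in 11%, and somatostatin-only wells in 5.60% and 0.775%.

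Dapl1 had the most even difference in level between the arms. It had 280.7, 242 and 317 CPM in insulin-only wells of ppx plates 1, 2 and 3, against 134, 149 and 137 CPM on sham plates 1, 2 and 3. Every ppx plate lay above every sham plate. The means were 279.9 ± 37.1 CPM on ppx and 139.8 ± 8.21 CPM on sham plates (SD, n = 3 each), and the log2 fold change of 0.91 ± 0.15 (SE) ran between 0.80 and 1.07 when each plate was left out in turn. A UMI was found in 55.0%, 46.6% and 51.0% of wells on the ppx plates and in 37.5%, 31.6% and 33.7% on the sham plates. The mean share was higher by 16.6 points after ppx, by 6.18 points with wells thinned to 1000 UMIs and by 10.6 points with stricter limits on Sst and Gcg. With wells thinned to 2000 UMIs it was less even, at 26.4 ± 9.97% on ppx and 20.8 ± 3.69% on sham plates (SD, n = 3 each), a difference of 5.65 points. The level of Dapl1 was higher on ppx within both sorts, by 147 CPM on the tomato-positive plates. Against sham plate 3 it was higher by 105.7 and 180.0 CPM on ppx plates 2 and 3.

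**Figure D1:**
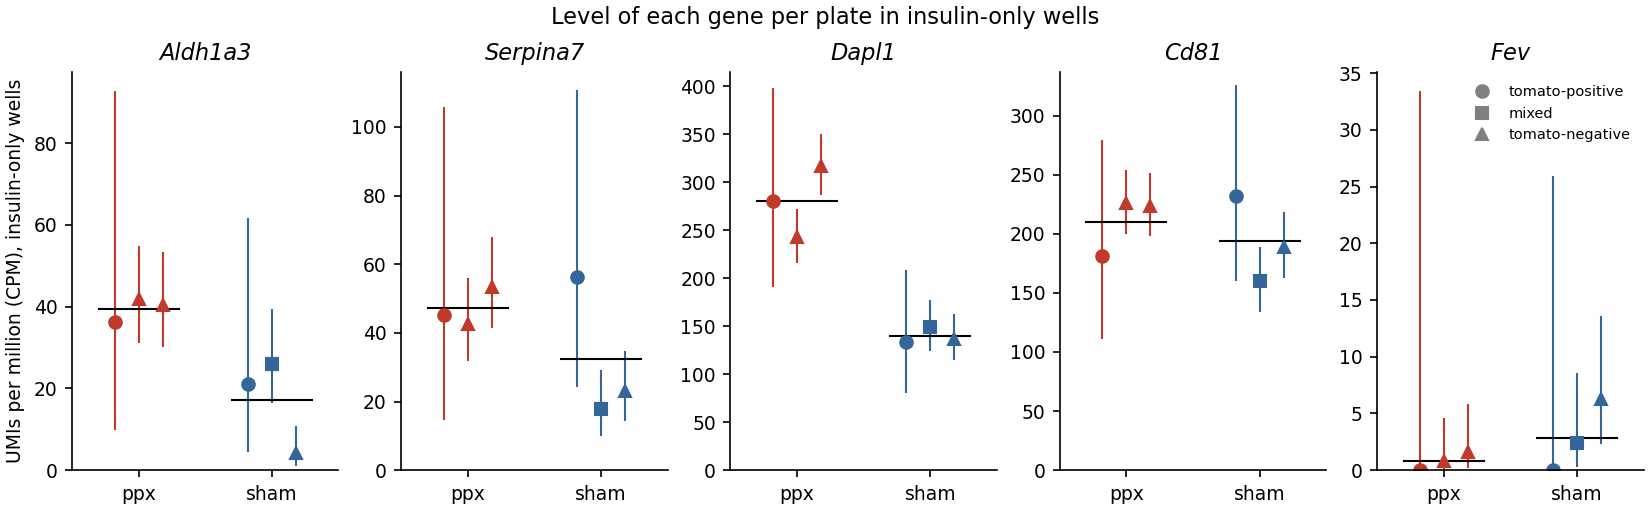
Level of Aldh1a3, Serpina7, Dapl1, Cd81 and Fev in insulin-only wells, in CPM on the vertical axis, with ppx plates on the left and sham plates on the right of each panel. Points are plates, marked by tomato status, with exact 95% Poisson intervals that cover counting error only, and lines are group means. The 3 Dapl1 points of ppx lie between 242 and 317 CPM and those of sham between 134 and 149 CPM, while Serpina7 and Cd81 overlap.

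The pooled level of Dapl1 was highest in insulin-only wells. It was detected in 42.7% of insulin-only wells (exact 95% interval 39.6 to 45.8) and 44.0% of insulin and somatostatin wells. It was detected in 42.5% of wells with glucagon and another hormone and 21.6% of glucagon-only wells, but in 2.22% of somatostatin-only and 3.45% of hormone-low wells. Thinned to 1000 UMIs, 16.7% of insulin-only wells and 1.45% of somatostatin-only wells had a UMI, and 0 of 113 hormone-low wells. Over plates with at least 10 wells of a class, the thinned share averaged 18.3% on ppx and 12.1% on sham plates in insulin-only wells. It was 17.6% and 8.00% in glucagon-only wells (1 and 3 plates) and 9.21% and 12.5% in insulin and somatostatin wells (1 and 2 plates). Wells with glucagon and another hormone had 9.09% and 2.86% (1 and 2 plates). The 994 UMIs of Dapl1 in insulin-only wells lay in 427 wells, with up to 13 in a well. The pooled level was 220.3 CPM in insulin-only wells, 88.5 CPM in glucagon-only and 13.2 CPM in somatostatin-only wells.

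Cd81 was the most widely detected of the genes and showed no clear difference by operation. Insulin-only wells had 181, 226 and 223 CPM on ppx plates 1, 2 and 3, against 232, 159.8 and 189 CPM on sham plates 1, 2 and 3. The arms overlapped, with means of 210.2 ± 25.2 CPM on ppx and 194 ± 36.4 CPM on sham plates (SD, n = 3 each), and the log2 fold change of 0.20 ± 0.15 (SE) turned to -0.16 in wells thinned to 1000 UMIs. The share of wells was 65.0%, 46.6% and 46.6% on the ppx plates and 66.7%, 43.5% and 49.7% on the sham plates. Tomato-positive plates had the higher shares in both arms, and also the deeper insulin-only wells, with medians of 4528.5 UMIs on ppx and 5397 on sham. The spread of the share between plates was 10.6 points (SD) on ppx and 12.0 on sham. Thinned to 1000 UMIs, the share averaged 17.4 ± 2.26% on ppx and 18.9 ± 2.14% on sham plates (SD, n = 3 each). The part of depth was not tested. The difference was -51.0 CPM for ppx plate 1 against sham plate 1 and 34.7 to 37.2 CPM for ppx plates 2 and 3 against sham plate 3.

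Every class of well carried Cd81, and insulin-only wells were at the low end. Thinned to 1000 UMIs, 19.0% of insulin-only wells had a UMI, against 23.0% of insulin and somatostatin wells, 31.1% of somatostatin-only, 32.5% of glucagon-only, 31.5% of wells with glucagon and another hormone and 44.2% of hormone-low wells. The pooled level was 204 CPM in insulin-only wells, 377 CPM in somatostatin-only, 361 CPM in glucagon-only and 646 CPM in hormone-low wells. In hormone-low wells it averaged 504 ± 64.8 CPM on ppx plates and 772 ± 198 CPM on sham plates (SD, n = 3 each). Unthinned, 47.5% of insulin-only wells had a UMI (exact 95% interval 44.4 to 50.6).

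Fev, Npy and Cck were close to absent from insulin-only wells, so 3 of the 7 listed genes did not mark these wells. Fev had 0, 1 and 2 UMIs on ppx plates 1, 2 and 3 and 0, 2 and 6 on sham plates 1, 2 and 3. It was detected in 1.0% of insulin-only wells (exact 95% interval 0.481 to 1.83), below every other class. The source of these few UMIs was not tested. In glucagon wells it was frequent, in 25.5% of glucagon-only wells at 98.7 CPM and 37.0% of wells with glucagon and another hormone at 74.2 CPM, and it was in 11.1% of somatostatin-only wells at 76.3 CPM. Glucagon-only wells had 14.6 CPM on ppx plate 2, the only ppx plate with at least 10 such wells, against 121 ± 26.3 CPM on the sham plates (SD, n = 3). The ppx value came from 5.88% of 17 wells that held 68267 UMIs in all, and so from very few molecules.

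Npy was seen in 4 insulin-only wells, on ppx plates 2 and 3 and sham plate 3, and a single well of ppx plate 3 held 5 of the 8 UMIs. None of the 1115 other wells had a Npy UMI, which allows a share of up to 0.269%. Cck had 1 UMI, on ppx plate 1, and none in the other classes. Neither level can be compared between the arms at this depth.

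**Figure D2:**
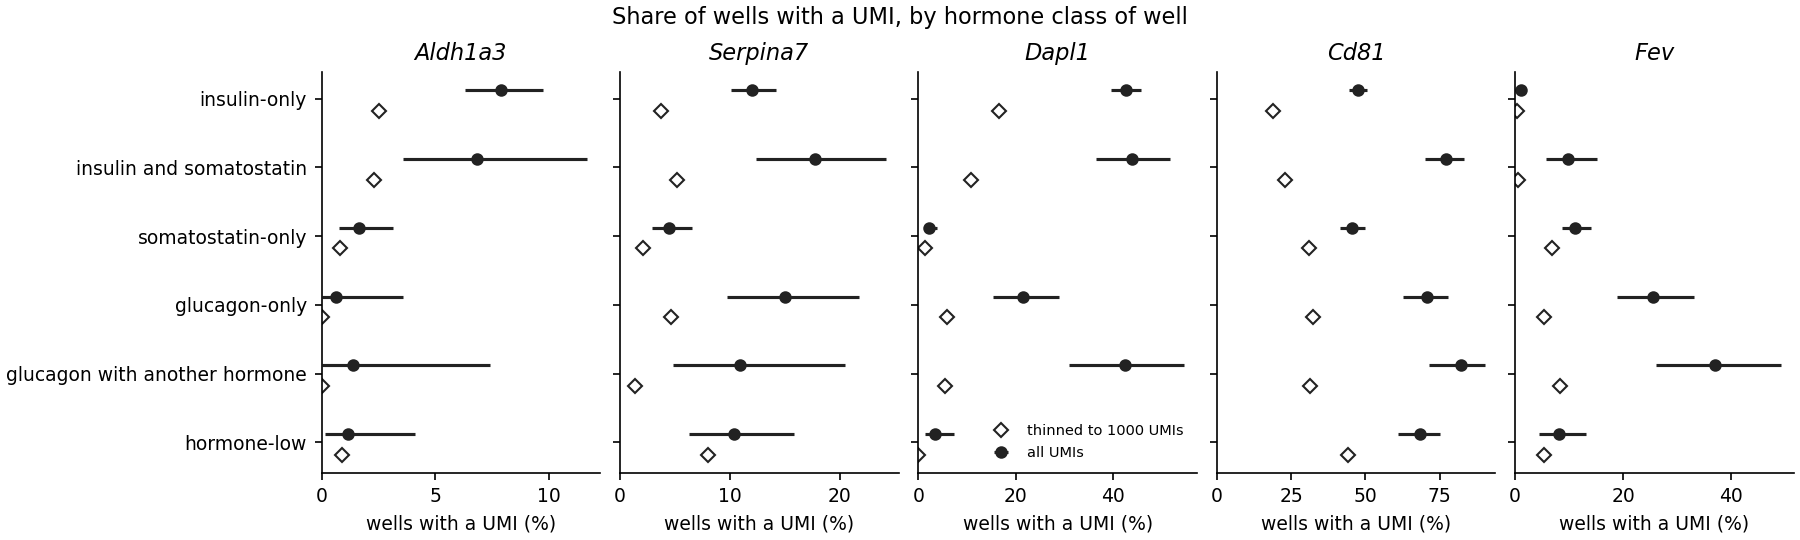
Share of wells with at least 1 UMI of Aldh1a3, Serpina7, Dapl1, Cd81 or Fev, in percent on the horizontal axis, with the classes of well on the vertical axis. Filled circles are all UMIs, with exact 95% intervals, and open diamonds are wells thinned to 1000 UMIs. Aldh1a3 and Dapl1 stand highest in wells with insulin, at 7.9% and 42.7% of insulin-only wells, Fev in wells with glucagon, at 25.5% and 37.0%, and Cd81 in every class.

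Few wells lay near the limits of the class. Of the 3 wells with 3.3 to 5% insulin, just inside, 1 had Serpina7, 2 had Cd81 and none had the others. Of the 11 wells with 2.2 to 3.3%, just outside, 1 had Serpina7, 1 Fev, 7 Cd81 and 1 Dapl1. Among insulin wells, the 9 with 0.5 to 0.73% Sst, just inside, had Aldh1a3 in 1, Serpina7 in 3, Cd81 in 9, Dapl1 in 6 and Cck in 1. The 6 with 0.73 to 1% Sst, just outside, had Aldh1a3 in 0, Serpina7 in 4, Fev in 1, Cd81 in 6 and Dapl1 in 4.

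The genes were next compared for detection in the same insulin-only wells, with the expected number computed within each plate and depth quartile. Serpina7 and Cd81 shared 80 wells against 60.1 expected, a ratio of 1.33, with 1.34 in ppx wells and 1.30 in sham wells. The ratio was 1.00, 1.43 and 1.30 on ppx plates 1, 2 and 3 and 1.58, 1.20 and 1.27 on sham plates 1, 2 and 3, so 5 of 6 plates lay above 1. The other pairs were nearer to the expected number. Aldh1a3 and Cd81 shared 44 wells against 39.4 expected, Aldh1a3 and Dapl1 37 against 39.3, Serpina7 and Dapl1 63 against 60.5, and Dapl1 and Cd81 197 against 207. Aldh1a3 and Serpina7 shared 13 wells against 12.0 expected, with ratios of 0.723 over 7 ppx wells and 2.61 over 6 sham wells. That split rests on very few wells. Ppy and Pyy, markers of another islet cell type, were high in a few wells. In the 19 insulin-only wells with at least 1% of UMIs from Ppy and Pyy, Serpina7 was in 26.3% and Cd81 in 84.2%. Those 19 had a median of 7146 UMIs, against 4250.5 in all insulin-only wells, and the part of depth was not tested. In the 94 wells with at least 0.3%, at a median of 2720.5 UMIs, they were in 12.8% and 50%. In the other 906 wells, at 4342 UMIs, they were in 11.9% and 47.2%. Without the 19 wells Serpina7 and Cd81 shared 76 wells against 56.8 expected, and without the 94 wells 71 against 53.1, a ratio of 1.34 both times.

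**Figure D3:**
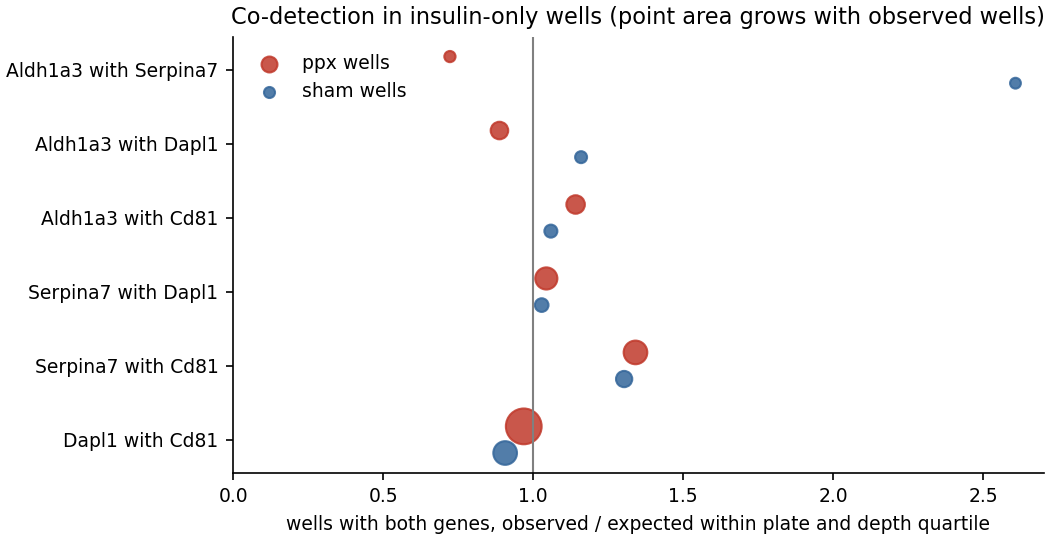
Observed over expected number of insulin-only wells with UMIs of both genes, on the horizontal axis, for the 6 pairs of Aldh1a3, Serpina7, Dapl1 and Cd81, with ppx in red and sham in blue. The Serpina7 and Cd81 pair lies at 1.34 and 1.30, and the widest gap, 0.723 against 2.61 for Aldh1a3 and Serpina7, comes from 7 and 6 wells.

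Few wells carried 3 or more of these genes. Of 606 ppx wells, 141 had none of Aldh1a3, Serpina7, Cd81 and Dapl1, 257 had 1, 160 had 2, 45 had 3 and 3 had all 4. Of 394 sham wells, 120 had none, 186 had 1, 76 had 2, 9 had 3 and 3 had all 4. These counts include the larger share of ppx wells with Dapl1. Depth also moved with detection: the median was 4754 UMIs in wells with Aldh1a3 and 4197 in those without, 5172.5 and 4134 for Serpina7, 4452 and 4029 for Cd81, and 4697 and 3915 for Dapl1.

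1 beta maturity gene passed between ppx and sham insulin-only wells. Of 33 listed, 30 were tested, and the gene that passed was Trpm5, a calcium-activated cation channel that acts in insulin release. Trpm5 fell to 90.6, 77.8 and 92.3 CPM on ppx plates 1, 2 and 3, against 84.4, 143 and 158 CPM on sham plates 1, 2 and 3, with a log2 fold change of -0.81 ± 0.18 (SE, edgeR adjusted p = 0.0254). Sham plate 1 lay among the ppx plates, and the call was lost without ppx plate 2, ppx plate 3, sham plate 2 or sham plate 3, in wells thinned to 1000 UMIs and with DESeq2. Over all genes 27 of 8181 passed, which is 0.330%, with 19 higher (0.232%) and 8 lower (0.0978%) after ppx. Listed genes were among the 8181, and for them this contrast is no test. Of the maturity genes 23 had a negative and 7 a positive log2 fold change, with a median of -0.20 against -0.01 over all genes tested, of which 51.2% were negative.

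The best known maturity genes gave no call. Ucn3, the peptide urocortin 3 that appears late in beta cell maturation, had 643, 859.8 and 865 CPM on ppx plates 1, 2 and 3, against 513, 805 and 947 CPM on sham plates 1, 2 and 3, a log2 fold change of -0.01 (edgeR adjusted p = 0.995). Mafa, a transcription factor of mature beta cells, had 625, 848 and 815 CPM on the ppx plates, against 738, 843 and 892 CPM on the sham plates, a log2 fold change of -0.15 (edgeR adjusted p = 0.824). Ins1 stood at -0.24 (edgeR adjusted p = 0.66) and Ins2 at -0.39 (edgeR adjusted p = 0.81), with the plate split of Ins2 given above. The 4 listed genes that passed the count filter, Aldh1a3, Serpina7, Dapl1 and Cd81, all had positive values in this fit, and this contrast was part of how the genes were chosen.

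In the same insulin-only wells, detection of Aldh1a3 or Dapl1 came with no lower maturity gene past the threshold, and detection of Serpina7 or Cd81 came with 1 each. Wells with a UMI of a gene were summed per plate and compared with those without, with the plate as a block, on plates with at least 10 wells of both kinds. For Aldh1a3 these were ppx plates 2 and 3 and sham plate 2, with 25, 29 and 16 wells. None of 30 maturity genes passed in edgeR, 6 had an unadjusted p under 0.05, against 297 of all 5893 genes, and DESeq2 called 0. Of the 30, 9 were positive and 21 negative, against 51.6% negative over all genes, and the median was -0.10 against -0.01 over all genes. Ucn3 had 636, 653 and 652 CPM in wells with Aldh1a3 on ppx plate 2, ppx plate 3 and sham plate 2, against 883, 895 and 819 CPM in wells without. It was lower on all 3 plates, by a log2 fold change of -0.43 ± 0.13 (SE), and did not pass (edgeR adjusted p = 0.356). Slc30a8, the zinc transporter of insulin granules, was also lower on all 3 plates at -0.34 (edgeR adjusted p = 0.779). Ins1 and Ins2 stood at -0.04 and -0.03. Beside Serpina7, Cd81 and Dapl1, 3, 8 and 7 of the 30 maturity genes had an unadjusted p under 0.05 in edgeR, and 3 between ppx and sham. Over all genes these comparisons had 264 of 6088, 379 of 6439, 500 of 6468 and 727 of 8181.

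Wells with Serpina7 had less Mafa. On ppx plates 2 and 3 and sham plates 2 and 3 they numbered 39, 43, 13 and 17, and Mafa had 728, 515, 507 and 755 CPM in them, against 873, 884, 877 and 908 CPM in wells without. The log2 fold change was -0.49 ± 0.11 (SE, edgeR adjusted p = 0.0456, lower on 4 of 4 plates). It was the only maturity gene to pass of 30, with a list median of -0.06 against -0.01 over all genes, and the call was lost when any of the 4 plates was left out, with DESeq2 and with its size factors in edgeR. Ucn3 stood at -0.24 (edgeR adjusted p = 0.995).

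Wells with Cd81 had less Trpm5, the gene that was also lower after ppx. On ppx plates 2 and 3 and sham plates 2 and 3 they numbered 137, 136, 77 and 96. Trpm5 had 64.5, 79.9, 96.6 and 110.5 CPM in them, against 90.9, 105, 176 and 206 CPM in wells without, a log2 fold change of -0.68 ± 0.15 (SE, edgeR adjusted p = 0.00284, lower on 4 of 4 plates). The call was lost without sham plate 2 or sham plate 3 and with DESeq2, and the value was 0.0092 in wells thinned to 1000 UMIs. Thinned wells were sorted anew by the thinned counts, and those still with Cd81 numbered 51, 56, 37 and 37. Mafa stood at -0.30 (edgeR adjusted p = 0.0525), and the maturity list had 7 positive and 23 negative values with a median of -0.05, against 50.8% negative over all genes.

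Wells with Dapl1 instead had 1 maturity gene that was higher. These wells, 137, 149, 56 and 65 on ppx plates 2 and 3 and sham plates 2 and 3, carried more Pcsk1, the prohormone convertase that begins the cutting of proinsulin. Pcsk1 had 824, 713, 723 and 730.2 CPM in wells with Dapl1, against 610.1, 608, 652 and 525 CPM in wells without, a log2 fold change of 0.35 ± 0.07 (SE, edgeR adjusted p = 0.0282, higher on 4 of 4 plates). It was the only maturity gene to pass, and 14 of the 30 were positive. The Pcsk1 call was lost without ppx plate 2 and in wells thinned to 1000 UMIs, and without sham plate 3 no gene passed in this comparison.

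**Figure D4:**
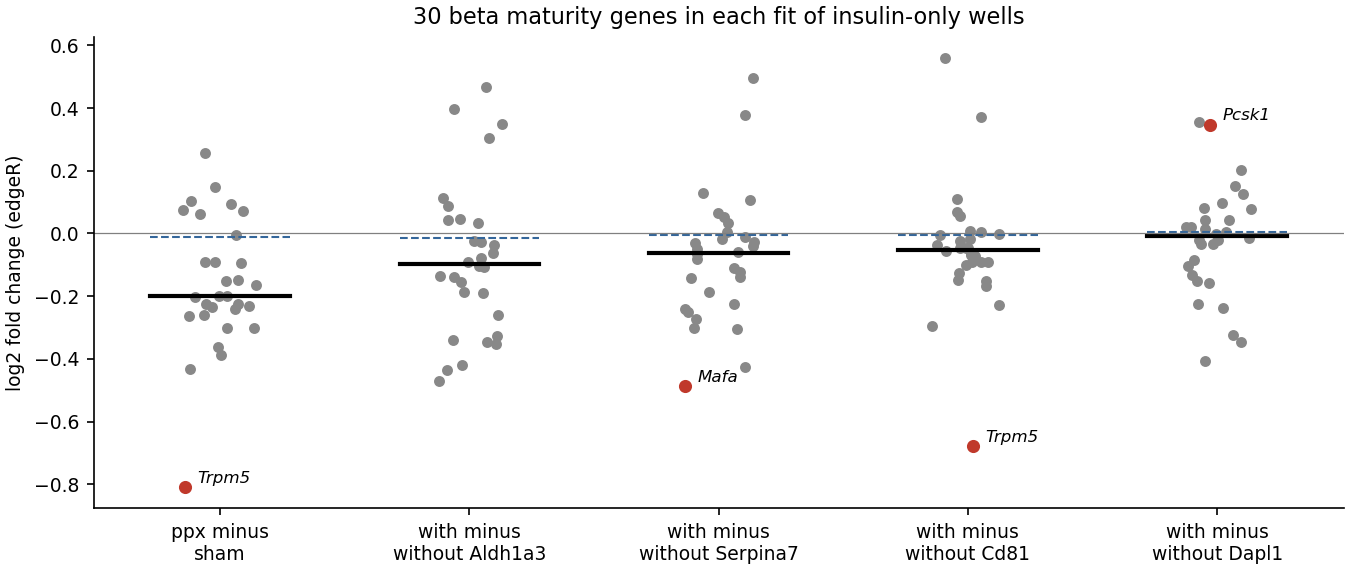
Log2 fold change of 30 beta maturity genes, on the vertical axis, in ppx minus sham insulin-only wells and in wells with minus without a UMI of Aldh1a3, Serpina7, Cd81 and Dapl1. Black bars are the list medians, dashed blue lines the medians of all genes tested, and red points the genes with an adjusted p under 0.05. Red points are Trpm5 at -0.81 for ppx, Mafa at -0.49 for Serpina7, Trpm5 at -0.68 for Cd81 and Pcsk1 at 0.35 for Dapl1.

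Beyond maturity genes, wells with Cd81 carried more Gpx3, Mt1 and Mt2. Of 6439 genes tested, 11 passed (0.171%), 10 higher (0.155%) and 1 lower (0.0155%). The 10 include Serpina7, a listed gene whose detection beside Cd81 was known beforehand, so its place among them is no test. Gpx3, a secreted glutathione peroxidase listed here with genes of immature beta cells, had 175, 171, 153 and 225 CPM in wells with Cd81 on ppx plates 2 and 3 and sham plates 2 and 3, against 79.5, 60.7, 109.5 and 100.03 CPM in wells without. Its log2 fold change was 1.08 ± 0.14 (SE, edgeR adjusted p = 1.02e-11). The metallothionein genes Mt1 and Mt2 were higher by 0.49 and 0.55 (edgeR adjusted p = 1.3e-07 and 2.03e-09). Mt1 had 873, 755, 1111 and 1117 CPM in wells with Cd81, against 563, 546, 817 and 834 CPM in wells without. These 3 genes were higher on 4 of 4 plates, passed in DESeq2 and passed without each plate in turn, but Gpx3 and Mt2 did not pass in wells thinned to 1000 UMIs (edgeR adjusted p = 0.926 and 0.925).

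Smaller differences with Cd81 were in Chga, the granule protein chromogranin A, at 0.23 (edgeR adjusted p = 0.0027), and in Rgs2, a regulator of G protein signalling, at 0.33 (edgeR adjusted p = 0.0166). Both calls were lost without sham plate 2 or sham plate 3, with DESeq2 and in thinned wells, and that of Rgs2 also in depth-matched wells, without the filter on low counts and without wells rich in Ppy and Pyy. The mitochondrial ribosomal RNA gene mt-Rnr2, Ppy, Pyy and E130111B04Rik were the other genes called higher, and in wells thinned to 1000 UMIs Ppy and Pyy had negative values of -1.0 and -0.83. Serpina7 itself had 64.5, 73.5, 25.6 and 32.7 CPM in wells with Cd81, against 21.1, 32.8, 12.2 and 12.8 CPM in wells without. That log2 fold change of 1.31 ± 0.26 (SE) repeats the joint detection and is given as a description. Of the other 10 tetraspanins and partners tested, none passed in edgeR or DESeq2 and 2 had an unadjusted p under 0.05. Cd82 stood at 0.85 (edgeR adjusted p = 0.474). Markers of macrophages, which also express Cd81, summed to 36.8 to 53.2 CPM over plates in wells with Cd81 and 34.1 to 117 CPM in wells without, with 7 of 8 markers seen and Lyz2 at 0 in wells with, and their part in the result was not tested.

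Wells with Dapl1 carried more Ssr4 and Nucb2 and less Mt1 and Mt2. Of 6468 genes, 11 passed (0.170%), 8 higher (0.124%) and 3 lower (0.0464%). Ssr4, a subunit of the complex that receives proteins at the endoplasmic reticulum, had 1117, 1213, 846 and 852 CPM in wells with Dapl1 on ppx plates 2 and 3 and sham plates 2 and 3, against 919.7, 989, 568 and 662 CPM in wells without, a log2 fold change of 0.39 (edgeR adjusted p = 0.0116). Nucb2, the precursor of the peptide nesfatin, stood at 0.40 (edgeR adjusted p = 0.0129), Ddost, a subunit of the glycosylating oligosaccharyltransferase, at 0.34 (edgeR adjusted p = 0.0282), and Fkbp11, a foldase of the endoplasmic reticulum, at 0.46 (edgeR adjusted p = 0.0403). The Ddost call was lost without any 1 of the 4 plates, that of Fkbp11 without ppx plate 2, ppx plate 3 or sham plate 3, and both in depth-matched wells. The matching was incomplete on the ppx plates, where too few wells lacked Dapl1. Medians with and without Dapl1 stayed at 4530 and 3571 UMIs on ppx plate 2 and at 4467 and 3623 on ppx plate 3. Edem1, of endoplasmic reticulum degradation, was higher by 0.79 and the tubulin gene Tubb5 by 0.75 (edgeR adjusted p = 0.0247 and 0.0403). Prodynorphin, Pdyn, a delta marker here, was higher by 0.82 (edgeR adjusted p = 0.0282) with 1 exception, at 173 CPM in wells with Dapl1 and 217 CPM in wells without on ppx plate 2. Delta markers summed to 681 to 1540.3 CPM over plates in wells with Dapl1 and 633 to 1252 CPM in wells without, with 5 of 10 seen, and their part in the result was not tested.

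Mt1 and Mt2 had opposite signs beside Cd81 and beside Dapl1. Mt2 had 467, 467, 479.9 and 346 CPM in wells with Dapl1, against 645, 643, 561 and 818 CPM in wells without (log2 fold change -0.57, edgeR adjusted p = 0.008), and Mt1 stood at -0.44 (edgeR adjusted p = 0.0133). The difference between the 2 comparisons was not tested, and they use largely the same wells. Zdhhc2, a palmitoyltransferase, was lower by a log2 fold change of -0.38 (edgeR adjusted p = 0.0145), a call that was lost without any 1 of the 4 plates. None of the 11 passed without sham plate 3. Mt2, Pdyn and Ssr4 kept their calls without ppx plate 2, Edem1, Mt1, Mt2, Nucb2, Pcsk1 and Ssr4 without ppx plate 3, and Fkbp11, Mt1, Mt2, Pcsk1 and Tubb5 without sham plate 2. In wells thinned to 1000 UMIs 4 genes passed for Dapl1 and none was shared with these 11. DESeq2 called 12 and shared 3 of the 11, Nucb2, Pcsk1 and Ssr4, so the calls of Mt1 and Mt2 beside Dapl1 were lost with it.

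**Figure D5:**
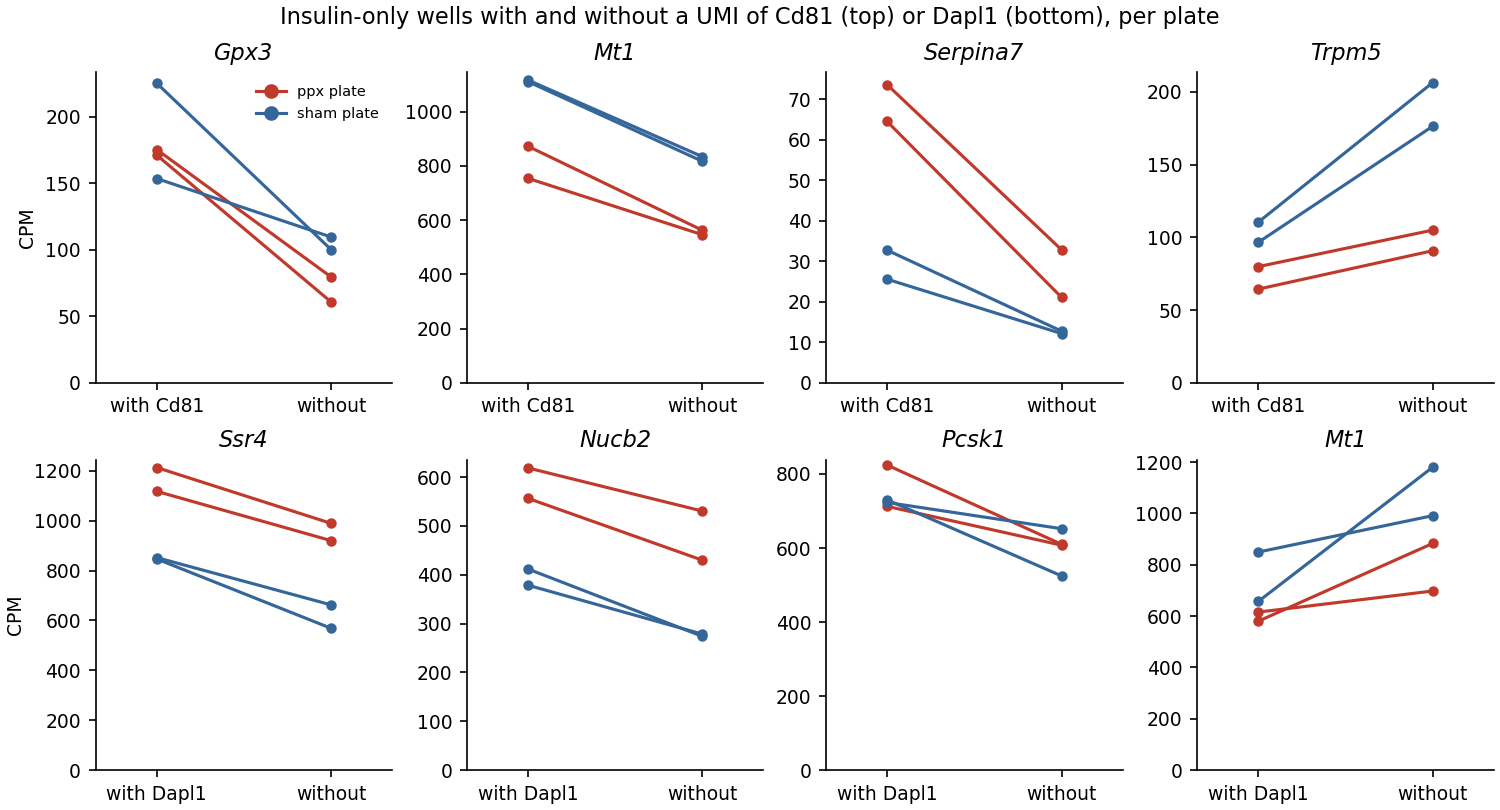
Level in CPM, on the vertical axis, of 1 gene per panel in insulin-only wells with (left) and without (right) a UMI of Cd81, in the upper row, and of Dapl1, in the lower row. Lines join the sums of the same plate, ppx in red and sham in blue. Gpx3 and Mt1 are higher in wells with Cd81 on all 4 plates and Trpm5 is lower, and Ssr4, Nucb2 and Pcsk1 are higher and Mt1 is lower in wells with Dapl1.

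Wells with Serpina7 had 6 of 6088 genes past the threshold (0.0986%), 4 higher (0.0657%) and 2 lower (0.0329%). Fkbp11 had 486, 489, 152 and 282 CPM in wells with Serpina7 on ppx plates 2 and 3 and sham plates 2 and 3, against 301, 294, 167 and 123 CPM in wells without, a log2 fold change of 0.73 ± 0.13 (SE, edgeR adjusted p = 0.000429) that was absent on sham plate 2. Gc, the vitamin D-binding protein, had 386, 393, 215 and 232 CPM with and 308, 277, 112 and 106 CPM without (log2 fold change 0.61, edgeR adjusted p = 0.02). Hspa1b, a heat shock protein gene that responds to tissue dissociation, was lower by a log2 fold change of -0.78 (edgeR adjusted p = 0.02). Leaving out any 1 of the 4 plates ended the call of Gc. That of Fkbp11 was lost without ppx plate 2, ppx plate 3 or sham plate 3 and that of Hspa1b without ppx plate 3, sham plate 2 or sham plate 3. In depth-matched wells Fkbp11 and Gc did not pass, and DESeq2 called 0 genes. Fkbp11 and Gc were also higher after ppx, by log2 fold changes of 1.0 and 1.28 (edgeR adjusted p = 8.74e-05 and 2.5e-06), and within each plate the operation is shared by both kinds of wells.

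Wells with Aldh1a3 had 4 of 5893 genes past the threshold (0.0679%), all lower, and none passed with DESeq2 or without ppx plate 3. They were Ppy at -1.28, its neighbour Pyy at -1.25, the antisense gene E130111B04Rik at -1.69 (edgeR adjusted p = 0.0015) and Phldb2, which had 0 UMIs in wells with Aldh1a3 and 45, 41 and 19 UMIs in wells without on ppx plate 2, ppx plate 3 and sham plate 2. E130111B04Rik went the other way on sham plate 2 alone, at 14.2 CPM with and 5.17 CPM without, from 1 and 4 UMIs. The Phldb2 call was lost without any 1 of the 3 plates, and neither of these 2 was called in depth-matched wells. Ppy was unevenly spread over wells. It had 1638, 797 and 1048 CPM in wells with Aldh1a3 on ppx plate 2, ppx plate 3 and sham plate 2, against 4999, 2937 and 847 CPM in wells without, and 94 insulin-only wells, 52 of them on ppx plate 2, held at least 0.3% of UMIs from Ppy and Pyy. Ppy and Pyy were called higher beside Serpina7, at 1.58 and 1.39, and those calls were lost without ppx plate 3 or sham plate 3 and in depth-matched wells.

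The pathways around the single genes were mostly below the count filter. Of 20 genes of retinoid metabolism and receptors, 3 were tested between ppx and sham and none passed in edgeR, with 1 at an unadjusted p under 0.05. The retinoid receptor Rxra had 0, 9.01 and 11.3 CPM on ppx plates 1, 2 and 3, against 14.1, 23.7 and 22.9 CPM on sham plates 1, 2 and 3, with a log2 fold change of -1.28 (edgeR adjusted p = 0.226). Of 20 genes of thyroid hormone carriers, transporters and receptors, 8 were tested and none passed in edgeR, with 1 at an unadjusted p under 0.05. The deiodinase gene Dio1, whose product activates thyroid hormone, had 99.6, 149 and 151 CPM on the ppx plates, against 162, 181 and 174 CPM on the sham plates (log2 fold change -0.34, edgeR adjusted p = 0.467). Of 18 genes of the serotonin and Fev programme, 6 were tested, and of 16 peptide receptor and processing genes beside Npy and Cck, 9.

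None of those 6 and 9 genes passed in edgeR, with 0 and 2 at an unadjusted p under 0.05. Pam, the enzyme that amidates peptides, had 652, 669.8 and 773 CPM on ppx plates 1, 2 and 3, against 654, 369 and 507 CPM on sham plates 1, 2 and 3 (log2 fold change 0.47, edgeR adjusted p = 0.285). Of 20 tetraspanins and partners of Cd81, 12 were tested and none passed in edgeR, with 1 at an unadjusted p under 0.05. Tspan7 had 471, 501 and 509 CPM on the ppx plates, against 260.2, 399 and 383 CPM on the sham plates (log2 fold change 0.39, edgeR adjusted p = 0.338). Of 33 disallowed and other immaturity genes, 11 were tested and none passed in edgeR, with 3 at an unadjusted p under 0.05. Sox4, a transcription factor of endocrine progenitors, had 9.06, 43.4 and 47.8 CPM on the ppx plates, against 84.4, 71.0 and 74.1 CPM on the sham plates (log2 fold change -0.85 ± 0.22 SE, edgeR adjusted p = 0.0982). Over all genes 727 had an unadjusted p under 0.05, and DESeq2 called 10, none of them in these lists.

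Profiles over 27 combinations of plate and class of well were used to find the genes most like each listed gene, by Pearson's r of log2(CPM + 10). These describe shared classes and plates and carry no p-value. Dapl1 was most like Spc25 (r = 0.932), Ssr4 (0.912) and Slc30a8 (0.875). Cd81 was most like Apoe (0.848), Gm8292 (0.828) and Myl12a (0.826). Fev was most like Ndst4 (0.829), Gria2 (0.784) and Kmt2a (0.777), and Serpina7 most like Trmt2a (0.752), Ror2 (0.749) and Tsr1 (0.744). Aldh1a3, Npy and Cck averaged under 20 CPM and were not ranked.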

How the data were processed

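The authors deposited UMI counts per well for 6 plates, without normalisation. The submitters' processing notes name HISAT 0.1.6 and the build mm10, and the sources used here give neither the counter nor its annotation. Wells with under 500 UMIs (96) or over 20% mitochondrial UMIs (93) were dropped, so 2115 of 2304 remained, and no doublet caller was run. The 92 spike-in rows held 3 UMIs and stayed out of totals. The genes, the lists of genes and the comparisons were chosen with earlier results of these data known.

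Counts were summed per plate over insulin-only wells, 110436 to 1234927 UMIs per sum, and tested by the quasi-likelihood F test of edgeR 4.0.16 in R 4.3.3, with TMM factors, the filterByExpr filter and Benjamini-Hochberg adjustment over all genes. Genes with an adjusted p under 0.05 were called. DESeq2 1.42.0 was the second tool. Standard errors of log2 fold changes came from the F statistic. In simulated counts the fits recovered 66% of genes changed 2-fold and 84% of those changed 4-fold between ppx and sham (8181 genes), and 41% and 70% for wells with against without Aldh1a3 (5893 genes). Shares carry exact 95% intervals (Clopper-Pearson), and where no well had a UMI the limit is 3 counts. Intervals and limits reflect counting error alone. Levels are not compared between genes. Python 3.11.15 with numpy 2.4.6, scipy 1.17.1 and pandas 2.3.3 was used.

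By the rule for named genes, the text may name the 7 listed genes, the hormone genes, the called members of each list or otherwise up to 4 with the smallest p, up to 8 called genes per direction, and the 3 most alike genes. Ucn3, Mafa, Gc and Fkbp11 between ppx and sham, Ucn3 beside Serpina7, Mafa beside Cd81, and called genes whose plates did not all move the same way were added after their values were seen. Alternatives were another scaling, no filter on low counts, DESeq2, each plate left out, tomato status, thinned wells, stricter limits and the replicate block.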

Additional observations from a re-analysis of the deposited data

Results flagged for a closer look

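Serpina7 and Cd81 moved in opposite directions in the sorts by tomato status. In insulin-only wells the difference between ppx and sham was -11.0 CPM for Serpina7 and -51.0 CPM for Cd81 on the tomato-positive plates, 1 plate each. On the tomato-negative plates both ppx plates lay above the sham plate, by 19.6 and 30.5 CPM for Serpina7 and by 34.7 and 37.2 CPM for Cd81. The difference was not tested, and the positive plates gave 20 ppx and 24 sham wells.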

How the results depend on the processing

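Between ppx and sham 27 genes passed; 62 passed with the replicate block, 67 with no low-count filter, 10 with DESeq2, 57 without the tomato-positive plates, 41 with tomato status as a covariate, 7 in wells thinned to 1000 UMIs, 50 with stricter Sst and Gcg limits, 64 in wells with Ppy and Pyy under 0.3%, and 12 to 49 without each plate in turn. The maturity genes called, 1, became 2 with the block and without the tomato-positive plates, 0 with DESeq2 and in thinned wells, and 0 to 2 without each plate. For the block, plates that share a number had correlations of 0.0205, 0.0212 and 0.0117 over 8181 genes, the labels do not pair them, and only ppx plate 3 was best matched with another number.

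For Aldh1a3 4 genes passed, with 0 in DESeq2 and without Ppy-rich wells, 2 in depth-matched wells and 0 to 3 without each plate (0 without ppx plate 3); its maturity genes went from 0 to 1 with no filter. For Serpina7 6 passed, with 0 in DESeq2, 2 in depth-matched wells and 0 to 5 without each plate (0 without ppx plate 3 or sham plate 3); its 1 maturity gene became 0 with DESeq2 size factors, 3 with no filter, 0 in DESeq2 and 0 without any plate. For Cd81 11 passed, with 3 in DESeq2, 3 in thinned wells, 6 without Ppy-rich wells and 7 to 12 without each plate; its 1 maturity gene became 2 with DESeq2 size factors, 3 with no filter, 0 in DESeq2, 0 in thinned wells, 2 with stricter limits and 0 to 2 without each plate. For Dapl1 11 passed, with 4 in thinned wells, 18 without Ppy-rich wells and 0 to 10 without each plate (0 without sham plate 3); its 1 maturity gene became 3 with DESeq2 size factors, 2 in DESeq2, 0 in thinned wells and 0 to 2 without each plate.

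Signs turned, as log2 fold changes, in these cases. Without Ppy-rich wells, which were chosen on Ppy and Pyy so that the values of these 2 are no test: Ppy 0.15, Pyy 0.22 and Gcg -0.013 (Aldh1a3), Ppy -0.16 and Pyy -0.17 (Serpina7), Pyy -0.026 (Cd81), Sst 0.065 and Ppy -0.10 (Dapl1). With no filter: Ttr -0.017 and Gcg -0.15 (Aldh1a3), Pcsk2 -0.013, Rxra -0.077 and Ins1 -0.16 (Serpina7), Ins2 -0.0077 (Dapl1); this setting moved the median of all genes to -0.39 (Aldh1a3) and -0.29 (Serpina7). In depth-matched wells: Ins2 0.019 and Gcg -0.10 (Aldh1a3), Sst 0.13 (Serpina7), Ins2 -0.017 (Dapl1). In thinned wells: Ppy -1.0, Pyy -0.83, Trpm5 0.0092, Maob 0.059 and Gcg 0.061 (Cd81), Gcg 0.092 and Ppy -1.12 (Dapl1), Cd81 -0.16 (ppx minus sham). With stricter limits Gcg -0.013 (Aldh1a3), and with DESeq2 Sst 0.053 (ppx minus sham). Without each plate in turn: Ins2 -1.80 to 0.075 and Sst -2.30 to 0.93 (ppx minus sham), Ttr -0.026 to 0.23 and Gcg -0.061 to 0.026 (Aldh1a3), Rxra -0.30 to 0.29, Ins1 -0.022 to 0.027 and Sst -0.26 to 0.059 (Serpina7), Ppy -0.046 to 1.54 (Cd81), Ins2 -0.015 to 0.023, Sst -0.10 to 0.055, Gcg -0.091 to 0.0014 and Ppy -0.48 to 1.13 (Dapl1).

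Of the other single-gene values 1102 were unchanged, 212 lost the call and 26 gained one. Unchanged meant the same direction and side of the threshold for tested values. For levels and shares of the listed genes between ppx and sham it meant a shift under the spread between plates, whatever the sign. Without each plate in turn the difference in share ran from -1.29 to 3.92 points for Aldh1a3 and from -0.49 to 6.25 for Serpina7. It ran from -6.72 to 6.10 points for Cd81 and from -0.0026 to 0.34 for Npy. Another 6 values without a test, of Aldh1a3, Cd81 and Dapl1 between ppx and sham, moved by more than that spread. The cause was not tested. Depth-matched and Ppy-low wells were chosen after seeing the data. Matching left a depth gap on the ppx plates for Dapl1 and a smaller one for Cd81, with medians of 4014 and 3663 UMIs on ppx plate 2. In comparisons of wells with and without a gene, thinned wells were sorted by the thinned counts, so wells that lost their UMIs of it changed sides. Thinned wells were not run for Aldh1a3 and Serpina7, nor any comparison of wells with and without Fev, Npy or Cck, as fewer than 3 plates had 10 such wells.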

Other observations

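Itpr1, which encodes a calcium release channel of the endoplasmic reticulum and was chosen after its values were seen, was among the 8 genes lower after ppx in insulin-only wells. It had 27.2, 9.01 and 8.91 CPM on ppx plates 1, 2 and 3, from 3, 11 and 11 UMIs, against 70.3, 43.8 and 28.2 CPM on sham plates 1, 2 and 3, from 10, 37 and 27 UMIs. The log2 fold change was -2.04 ± 0.37 (SE, edgeR adjusted p = 0.00209), and every ppx plate lay below every sham plate. The call was lost without ppx plate 2, ppx plate 3 or sham plate 2, and it had no adjusted p in DESeq2 and too few counts to be tested in thinned wells.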
